A study of Mus musculus with 18 samples.

Results

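The chaperone and heat shock genes of the mouse were followed by RNA sequencing in a medulloblastoma cell line and in whole brain. The set holds 39 genes, taken by exact match of the gene symbol from a fixed list of names, and all 39 were found among the 55183 genes of the cell table and the 19464 genes of the brain table, with the same gene identifier in both. All 39 are protein coding. The list was named for the cytosol, but 3 of its genes, Hspa9, Hspd1 and Hspe1, encode chaperones of the mitochondrial matrix and are described separately here. PTCP53 304 cells, labelled SHH MB (a medulloblastoma driven by Sonic hedgehog signalling) with the genotype Ptch1+/-; Trp53-/-, were treated with vehicle or with CT-179, an OLIG2 inhibitor by its label, and were collected on culture day 1 (24 h) or day 6 (144 h). OLIG2 is a transcription factor of the oligodendrocyte lineage. Whole brains came from mice labelled Ptch1+/-; IR, where IR is not explained, dosed with vehicle or CT-179 from postnatal day 3 and collected at postnatal day 15, after 12 days. Each of the 6 groups had 3 libraries. All cells thus share the Ptch1 and Trp53 genotype of 1 line, and all brains share Ptch1+/- and the IR label. Nothing in the labels says that replicates were separate cultures or animals, so each p-value is set against a spread between libraries that may be technical only.

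Chaperones bind unfolded or partly folded proteins. HSP70 proteins take up client proteins with the help of J-domain proteins, which trigger ATP hydrolysis, and of nucleotide exchange factors such as the HSP110 proteins. Clients can pass through adaptor proteins to HSP90, which completes the folding of many kinases and steroid receptors, or to TRiC, a ring-shaped chaperonin that folds actin and tubulin. Small heat shock proteins hold unfolded proteins without using ATP. HSF1 is the transcription factor that raises the inducible genes of this network after heat or other protein damage, by binding repeats of the 5-base unit NGAAN (the heat shock element).

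Promoter sequences were searched for exact matches to that element near the start of these genes. The RefSeq windows used here (GRCm38.p6, 250 bases before to 50 bases after a start) covered 31 of the 39 genes. The search took 3 adjoining units, GAANNTTCNNGAA or TTCNNGAANNTTC, and the shorter pair of units, GAANNTTC or TTCNNGAA, on both strands. A 3-unit match was present in 5 of the 31 genes (16.1%), namely Hspd1, Hspe1, Dnajb6, Hsph1 and Chordc1, against 0.662% of all gene symbols with a window and 0.603% of all 32851 windows. A 2-unit match was present in 16 of the 31 (51.6%), against 17.0% of all symbols and 15.1% of all windows. Every 3-unit match contains 2-unit matches, so the counts overlap. The windows of Hspd1 and Hspe1 share 285 bases, because these neighbours are read in opposite directions from starts 216 bases apart, and their matches are the same letters. A match is a description of these letters and says nothing of binding in these samples. Only exact matches within the window were counted, so a window without a match does not show that the gene lacks the element. The 5 windows below are shown because the values of these genes follow. The 3 with 3-unit matches belong to Hspe1 (mitochondrial co-chaperonin, chr1:55087898-55088197, plus strand), Hsph1 (HSP110, chr5:149636266-149636565, minus strand) and Chordc1 (an HSP90 co-chaperone, chr9:18292017-18292316, plus strand). The near-identical pair Hspa1a (chr17:34972107-34972406, minus strand) and Hspa1b (chr17:34959189-34959488, minus strand) are the classical heat-inducible HSP70 genes. Capitals mark the 2-unit and 3-unit matches.
Hspe1: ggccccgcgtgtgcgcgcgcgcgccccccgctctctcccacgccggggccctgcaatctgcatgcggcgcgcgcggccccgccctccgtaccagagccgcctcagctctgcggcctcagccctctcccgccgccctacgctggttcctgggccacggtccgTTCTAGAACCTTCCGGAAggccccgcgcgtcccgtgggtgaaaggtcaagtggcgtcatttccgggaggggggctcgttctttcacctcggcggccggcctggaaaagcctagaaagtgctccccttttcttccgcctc
Hsph1: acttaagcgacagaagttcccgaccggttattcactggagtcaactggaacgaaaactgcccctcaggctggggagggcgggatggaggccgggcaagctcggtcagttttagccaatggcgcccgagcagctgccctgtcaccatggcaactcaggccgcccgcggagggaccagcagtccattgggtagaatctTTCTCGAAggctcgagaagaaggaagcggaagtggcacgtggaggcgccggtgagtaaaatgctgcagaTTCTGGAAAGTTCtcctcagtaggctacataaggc
Chordc1: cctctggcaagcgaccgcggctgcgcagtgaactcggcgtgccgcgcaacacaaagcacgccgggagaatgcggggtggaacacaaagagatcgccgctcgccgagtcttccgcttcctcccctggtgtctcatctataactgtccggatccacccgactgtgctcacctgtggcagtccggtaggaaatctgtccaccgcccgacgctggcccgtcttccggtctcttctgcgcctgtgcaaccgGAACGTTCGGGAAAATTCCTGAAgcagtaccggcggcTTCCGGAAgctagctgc
Hspa1a: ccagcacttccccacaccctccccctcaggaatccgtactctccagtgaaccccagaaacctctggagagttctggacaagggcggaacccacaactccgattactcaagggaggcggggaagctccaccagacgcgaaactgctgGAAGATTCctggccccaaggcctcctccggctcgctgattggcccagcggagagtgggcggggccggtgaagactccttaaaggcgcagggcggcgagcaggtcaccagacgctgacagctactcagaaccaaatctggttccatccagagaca
Hspa1b: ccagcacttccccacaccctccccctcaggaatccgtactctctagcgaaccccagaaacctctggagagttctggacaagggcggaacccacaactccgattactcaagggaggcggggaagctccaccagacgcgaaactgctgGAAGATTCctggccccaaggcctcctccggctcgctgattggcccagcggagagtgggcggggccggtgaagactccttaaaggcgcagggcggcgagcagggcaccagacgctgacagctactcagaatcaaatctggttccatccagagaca

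The windows of Hspa1a and Hspa1b were 98.7% identical, and their longest reading frames, of 1926 and 1929 bases, were 99.4% identical. Of the 100-base windows of the Hspa1a transcript, 47.1% recurred unchanged in Hspa1b. How reads of 100 bases were divided between the 2 genes is therefore uncertain, and their separate values are to be read with that limit. Exons of 11 members also overlap exons of another annotated gene, 9 of them on the opposite strand, and how strand was treated in counting is not given in the sources used here. This overlap exceeded 10% of the exon bases in 3 members: Hspa1a (with Gm20481), Cryab (with Hspb2) and Tcp1 (with Acat3).

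The deposited unit is FPKM, the fragments per kilobase of gene scaled to the depth of the library, so levels of different genes can be compared per length within a table. Tests were made with limma on log2(FPKM + 1), and a gene was called at an adjusted p (Benjamini-Hochberg over all genes tested) below 0.05. All fold changes below carry this offset of 1 FPKM, so they are smaller than the plain ratio where levels are low. A gene was tested where it reached 1 FPKM in at least 3 libraries of the fit. This kept 37 of the 39 members in cells, without Hspa1a and Hspb8, and 38 in brain, without Hspa1a. Depth, inferred from the steps between low values, was 2.95e+07 to 7.09e+07 reads in the cell libraries and 1.78e+07 to 6.35e+07 in the brain libraries, the lowest being brain vehicle replicate 2. CT-179 replicate 2 at 144 h stood apart. Its log2 values correlated at 0.941 and 0.943 with the rest of its group, where the other cell libraries reached at least 0.996, and its FPKM values summed to 425478 against 308014 to 348964 elsewhere. Results that rest on it are given with and without it. Of the 12 progenitor genes read as marks of SHH tumours, 9 passed the filter in cells. The 12 summed to 355 to 360.0 FPKM in vehicle at 24 h, while Atoh1 and Barhl1 stayed below 0.1 FPKM in all 12 cell libraries. The genes of microglia, endothelium and red cells were at or near 0 in the cells.

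In vehicle-treated cells at 24 h the most abundant members were Hsp90ab1, the constitutive cytosolic HSP90, and Hspa8, the constitutive HSP70. Hsp90ab1 was at 1388, 1381 and 1546 FPKM and Hspa8 at 719, 691 and 686 FPKM in replicates 1, 2 and 3. They also ranked first and second in each of the other 5 groups. The mitochondrial chaperonin Hspd1 followed at 379 ± 17.3 FPKM (SD, n = 3), followed by the TRiC subunits Cct5 and Cct3 at 281 ± 17.3 and 272 ± 3.45 FPKM. Every Hspd1 value lay above every Cct5 value, while Cct5 and Cct3 lay within their SD of each other. Of the inducible genes, Hsp90aa1 was at 244 ± 7.24 FPKM and Dnajb1 at 23.9 ± 1.03 FPKM, while others were low. Hspa1b was at 1.13 ± 0.156 FPKM, Hspa1a at 0.243 ± 0.0314 FPKM, and the small heat shock protein gene Hspb1 at 0.338 ± 0.144 FPKM. Together the 39 members held 1.81% ± 0.068 (SD, n = 3) of the summed FPKM of a vehicle library at 24 h.

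Culture time gave the widest differences among these genes. Between 24 h and 144 h in vehicle, 27 of the 37 tested members fell and 5 rose. Of all 12510 genes tested in the same fit, 32.4% fell and 34.1% rose. All 144 h libraries lay below all 24 h libraries in 27 of the 37 members, and in 5366 of the 12510 genes. They lay above in 8 members and in 5576 genes. The median log2 fold change of the members was -0.69, against 0.0088 over all genes tested. The genes that fell included all 7 TRiC subunits, both HSP90 genes, all 3 mitochondrial chaperones, both heat shock factors, 6 of 8 co-chaperones, 4 of 7 J-domain genes and 3 of 6 tested HSP70 and HSP110 genes. The 5 that rose were Cryab, Dnajb2, Hspa2, Dnajb4 and Hspb1. In bulk RNA, fewer cells of a type and less RNA per cell cannot be told apart. The share of the members in the summed FPKM was 1.05% ± 0.0066 in vehicle at 144 h.

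**Figure D1:**
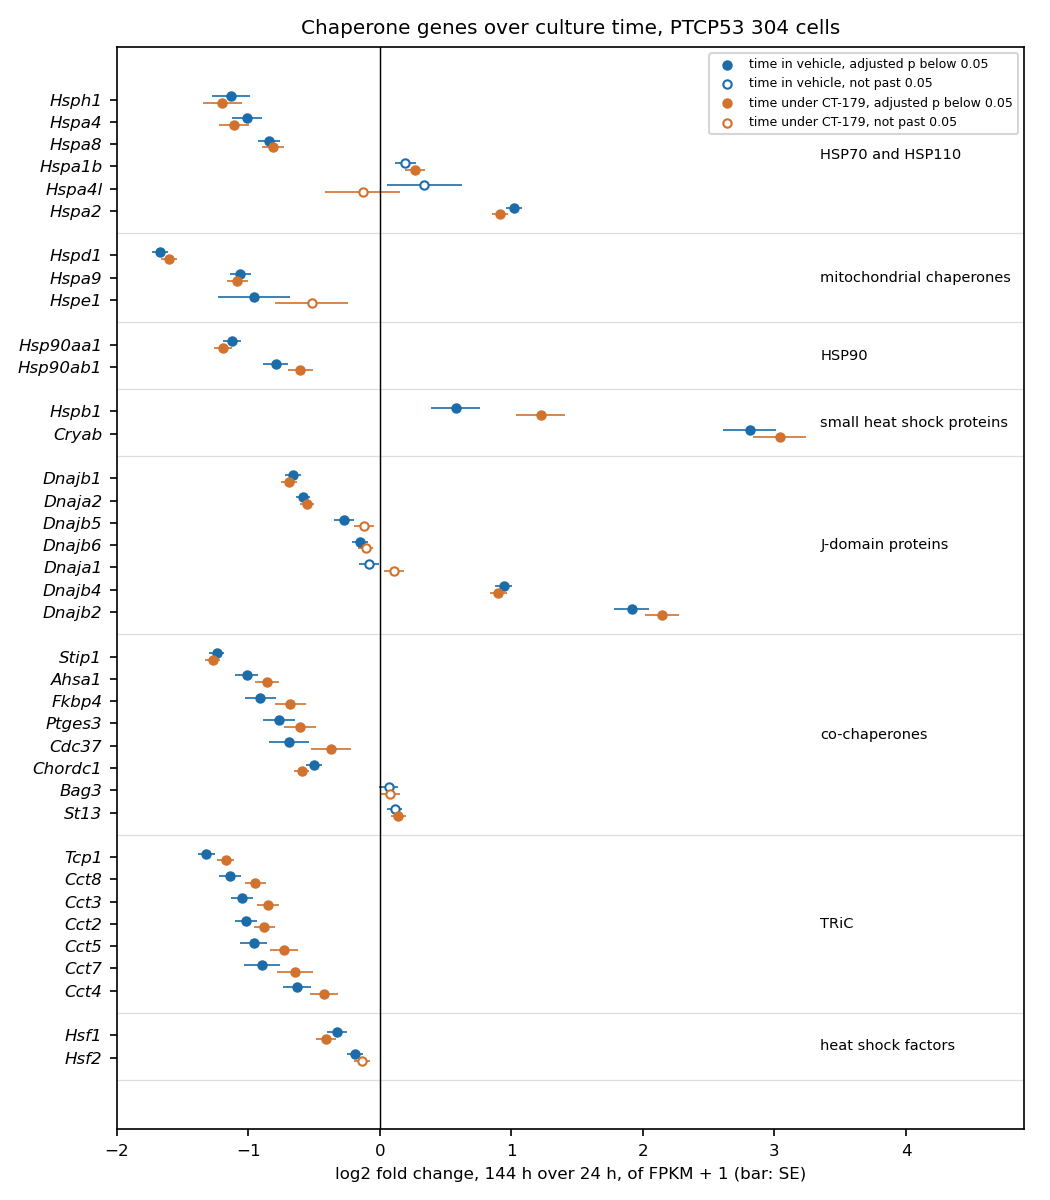
Log2 fold change of FPKM + 1 from 24 h to 144 h (x axis) for the 37 tested members, grouped by family (y axis), in vehicle (blue) and under CT-179 (orange), with the SE as bars. Filled points passed an adjusted p of 0.05. The TRiC, HSP90 and mitochondrial genes lie left of 0, and Cryab (2.81 in vehicle), Dnajb2 (1.91) and Hspa2 (1.02) lie to the right.

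Among the mitochondrial chaperones, Hspd1 (HSP60) had the largest fall of all members. Its level was 374, 365 and 398 FPKM at 24 h and 119, 118 and 119 FPKM at 144 h in vehicle. The groups did not overlap, and the log2 change was -1.67 (SE 0.061, adjusted p = 2.2e-09). Hspe1 (HSP10), the lid of the HSP60 barrel, went from 240.4, 241 and 282 to 132, 127 and 132 FPKM, a smaller change of -0.96 (SE 0.28). The ratio of Hspd1 to Hspe1 within a library was accordingly 1.49 ± 0.075 at 24 h and 0.908 ± 0.017 at 144 h (SD, n = 3), without overlap between the 2 times. These neighbours share a start region and 112 exon bases on opposite strands. Hspa9 (mortalin), the HSP70 of the matrix, fell by 1.06 on the log2 scale. Summed over the 3 genes, the level was 861 ± 53.4 FPKM at 24 h and 357 ± 4.04 FPKM at 144 h.

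The TRiC subunits moved together. TRiC is built from 8 kinds of subunit, and 7 of their genes are members. Tcp1, its first subunit, was at 197, 194 and 212 FPKM at 24 h and at 80.2, 78.8 and 80.5 FPKM at 144 h, a log2 change of -1.32 (SE 0.067, adjusted p = 2.8e-08). Cct8 had 204, 197 and 229 FPKM and then 94.2, 94.9 and 94.8 FPKM (-1.14, SE 0.082). Cct2 had 231, 231 and 231 FPKM and then 114, 114 and 113 FPKM (-1.02, SE 0.082). All 3 genes were lower in every 144 h library than in any 24 h library. The changes of the 7 subunits ranged from -1.32 (Tcp1) to -0.63 (Cct4), and their summed level was 1535 ± 46.3 FPKM at 24 h and 757 ± 6.57 FPKM at 144 h. The highest subunit exceeded the lowest 2.37-fold ± 0.070 within a 24 h library and 1.89-fold ± 0.031 within a 144 h library, with Cct4 the lowest at both times. Among the other 6 subunits this ratio went the other way, from 1.38 to 1.42 over the 24 h libraries to 1.80 to 1.81 over the 144 h libraries, and the coefficient of variation over all 7 was 24.6% ± 0.092 and 23.6% ± 0.41. The subunit gene Cct6a, which is not on the list, fell by 1.24 in the same fit.

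Within the HSP90 branch, the inducible Hsp90aa1 was at 239.7, 239 and 252 FPKM at 24 h and 109, 112 and 113 FPKM at 144 h, a log2 change of -1.12 (SE 0.07, adjusted p = 1.4e-07). Hsp90ab1 fell to 832, 813 and 841 FPKM (-0.79, SE 0.10). The 144 h libraries were lower than every 24 h library for both genes. The ratio of Hsp90ab1 to Hsp90aa1 was 5.90 ± 0.21 at 24 h and 7.45 ± 0.18 at 144 h.

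The co-chaperones that serve HSP90 mostly fell with it. Stip1 (HOP), which bridges HSP70 and HSP90, had 205, 200.5 and 189 FPKM at 24 h and 82.2, 81.4 and 85.8 FPKM at 144 h, a log2 change of -1.24 (SE 0.057, adjusted p = 1.4e-08). Ahsa1, which stimulates the HSP90 ATPase, changed by -1.01, the immunophilin Fkbp4 by -0.91, the p23 gene Ptges3 by -0.77, the kinase adaptor Cdc37 by -0.69 and Chordc1 by -0.50. The other 2 co-chaperones on the list bind HSP70 and were not called in vehicle. Bag3, a nucleotide exchange factor, was at 20.3 ± 0.637 FPKM at 24 h and 21.3 ± 1.04 FPKM at 144 h. St13 (HIP) was at 101 ± 5.15 and 109 ± 2.14 FPKM.

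The HSP70 and HSP110 genes split. Hspa8 fell from the values above to 393, 384 and 389 FPKM (-0.84, SE 0.084, adjusted p = 6.0e-06). The exchange factors Hsph1 and Hspa4 changed by -1.13 and -1.01. Hspa2, an HSP70 known best from male germ cells, went the other way. It was at 9.05, 8.19 and 7.75 FPKM at 24 h and 17.6, 18.2 and 18 FPKM at 144 h (1.02, SE 0.062, adjusted p = 1.1e-07), with every 144 h library above every 24 h library. The ratio of Hspa8 to Hspa2 was 84.1 ± 4.58 at 24 h and 21.7 ± 0.55 at 144 h. Hspa4l, a relative of HSP110, was not called in vehicle at 3.24 ± 0.295 and 4.35 ± 0.127 FPKM. Without CT-179 replicate 2 at 144 h in the fit, which had 1.11 FPKM where its group had 4.30 and 4.26, Hspa4l rose by 0.34 (adjusted p = 0.00013).

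The heat-inducible pair stayed low at both times. Hspa1b was at 1.29, 0.975 and 1.12 FPKM at 24 h and 1.52, 1.34 and 1.42 FPKM at 144 h in vehicle (0.19, SE 0.079, adjusted p = 0.053), and all 144 h libraries lay above the 24 h libraries. It passed in the fit without CT-179 replicate 2 at 144 h (adjusted p = 0.012). Hspa1a was at 0.275, 0.243 and 0.212 FPKM, 26, 24 and 14 implied reads, and then at 0.822, 0.856 and 1.06 FPKM, 89, 81 and 102 implied reads. With no filter on low values Hspa1a rose (adjusted p = 0.00014).

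The small heat shock protein genes rose from very low levels. Cryab (alpha B-crystallin) was at 1.29, 0.794 and 0.924 FPKM at 24 h and 13.4, 13.7 and 11.9 FPKM at 144 h, the largest rise of all tested members (2.81, SE 0.20, adjusted p = 4.6e-07). Hspb1 (HSP25 in the mouse) was at 0.213, 0.495 and 0.305 FPKM, 7, 17 and 7 implied reads, and then at 0.718, 1.28 and 1.01 FPKM, 27, 42 and 34 reads (0.58, SE 0.19, adjusted p = 0.019). That call was lost when vehicle replicate 1 or 3 at 24 h or vehicle replicate 2 at 144 h was left out. Hspb8, the partner of BAG3 in selective autophagy, had 2, 3 and 2 implied reads at 24 h and 45, 36 and 35 at 144 h (0.632, 0.579 and 0.548 FPKM). It was below the filter, and with no filter on low values it rose (adjusted p = 8.6e-08).

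Beside these rises, the 6 astrocyte marker genes (Gfap, Aqp4, Aldh1l1, Slc1a3, Slc1a2 and Gja1) summed to 104 to 107 FPKM in vehicle at 24 h and 487 to 493 FPKM at 144 h, and all 6 rose. The 6 genes of mature oligodendrocytes summed to 6.53 to 6.92 and 54.4 to 57.2 FPKM, with Mag, Mobp and Mog below 0.1 FPKM throughout. The 8 neuron genes summed to 5.42 to 5.97 and 26.9 to 27.9 FPKM, with Gad2 and Stmn2 below 0.1 FPKM. The 12 progenitor and SHH tumour genes summed to 355 to 360.0 and 120 to 122 FPKM. Of the 9 tested, however, 4 rose and 3 fell, with a median log2 change of 0.00047. The 6 genes of oligodendrocyte precursors summed to 1014 to 1131 and 678 to 703 FPKM, and of the 5 tested 3 fell and 2 rose. Their part in the changes of the chaperone genes was not tested.

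The J-domain genes had the widest range of any family. Dnajb2, whose protein carries ubiquitin-binding motifs and is known from neurons, was at 4.58, 4.65 and 4.76 FPKM at 24 h and 20.8, 20.5 and 19.7 FPKM at 144 h (1.91, SE 0.13, adjusted p = 3.0e-07). Dnajb4 was at 6.01, 5.57 and 6.03 FPKM and then 12, 12.7 and 11.9 FPKM (0.94, SE 0.065). In both genes every 144 h library lay above every 24 h library. Dnajb1 (HSP40), the inducible partner of HSP70, went from 23.9 ± 1.03 to 14.8 ± 0.371 FPKM and Dnaja2 from 83.5 ± 3.62 to 55.3 ± 0.16 FPKM, falls of 0.66 and 0.58 on the log2 scale. Dnajb5 changed by -0.27 and Dnajb6 by -0.15 (adjusted p = 0.046). Dnaja1 was not called.

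Both heat shock factors fell little. Hsf1 was at 19.7, 20.1 and 18.4 FPKM at 24 h and 15.8, 15.1 and 14.8 FPKM at 144 h (-0.33, SE 0.078, adjusted p = 0.0034), without overlap of the groups. Hsf2 went from 12.6 ± 0.834 to 10.9 ± 0.411 FPKM (-0.19). The 5 genes with a 3-unit match in their window, Hspd1, Hspe1, Hsph1, Chordc1 and Dnajb6, all fell in vehicle, by 0.15 to 1.67 on the log2 scale. So did 27 of the 37 members as a whole. The inducible Hspa1a and Hspa1b, whose windows hold 1 pair of units each, were not among the genes that fell.

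**Figure D2:**
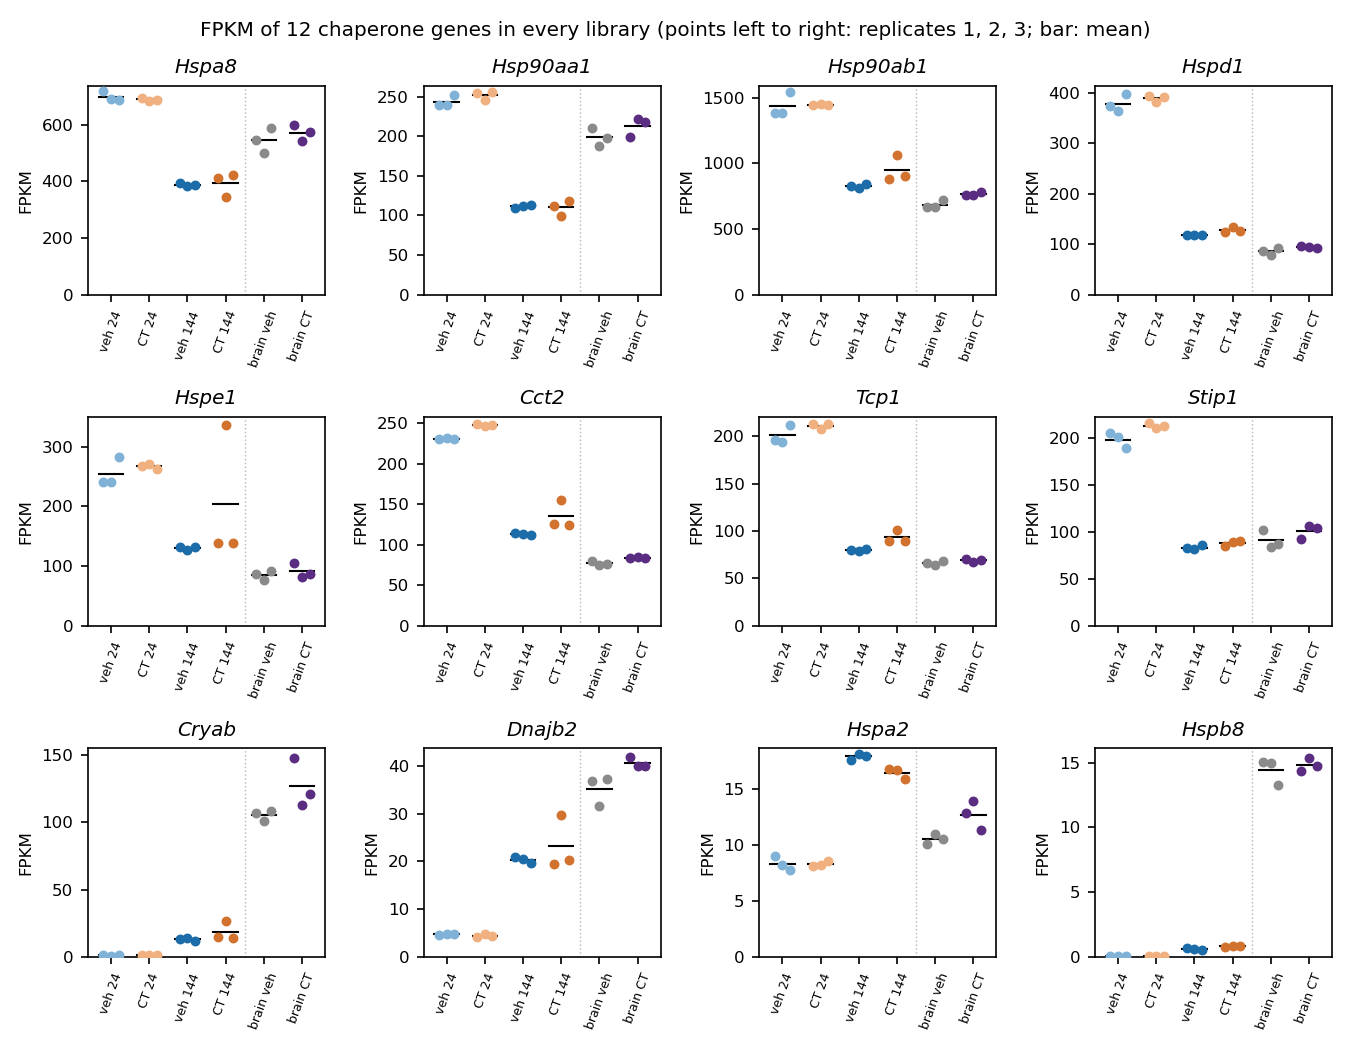
FPKM (y axis, from 0) of 12 members in every library of the 6 groups (x axis), with replicates 1 to 3 from left to right and the mean as a bar. In vehicle cells the 24 h and 144 h points do not overlap in any panel, and the middle CT-179 point at 144 h (replicate 2) stands away from its group for Hspe1 (337 against 138 and 139).

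The same passage of time under CT-179, which shares no library with the vehicle series but shares its estimate of the spread, gave 23 members that fell and 7 that rose of 37. Over all genes tested, 32.1% fell and 33.2% rose. All 144 h libraries lay below all 24 h libraries in 24 members, and in 4270 of the 12510 genes. They lay above in 7 members and in 4177 genes. The members had a median log2 change of -0.60 against -0.019 over all genes. The 23 were all among the 27 that fell in vehicle, and the 5 that rose in vehicle rose here too. Over all 12510 genes, 8322 were called in vehicle and 8169 under CT-179, and their overlap was not counted. Hspa1b (0.27, adjusted p = 0.012) and St13 (0.14, adjusted p = 0.047) passed under CT-179 and not in vehicle, while Dnajb5, Dnajb6, Hsf2 and Hspe1 passed in vehicle and not under CT-179. Without CT-179 replicate 2 at 144 h, all 6 passed in both series, and the counts were 8 risen and 28 fallen in vehicle and 9 and 27 under CT-179. Most genes were called in that fit. Of its 12459 genes, 5513 rose and 5409 fell in vehicle, and 5469 rose and 5201 fell under CT-179. St13 did not pass under CT-179 with the replicate number as a block (adjusted p = 0.069).

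Several members had nearly the same values in the CT-179 series. Hspd1 was at 395, 383 and 392 FPKM at 24 h and 124, 133 and 127 FPKM at 144 h (-1.60, SE 0.061, adjusted p = 3.2e-09). Stip1 was at 215, 211 and 213 FPKM and then 84.6, 88.7 and 89.7 FPKM (-1.27, SE 0.057). Tcp1 was at 213, 208 and 213 FPKM and then 89, 101 and 89.3 FPKM (-1.17, SE 0.067). In these 3 genes every 144 h library lay below every 24 h library. Hsp90aa1 went from 254, 246 and 256 to 112, 99.8 and 119 FPKM (-1.19, SE 0.07). Cryab was at 1.21, 1.28 and 1.23 FPKM and then at 14.5, 26.5 and 13.6 FPKM (3.04, SE 0.20). Replicate 2 carried the highest Cryab value, and without it the change was 2.75. Dnajb2 went from 4.06, 4.77 and 4.29 to 19.5, 29.7 and 20.2 FPKM (2.15, 1.96 without replicate 2). Hspa2 went from 8.11, 8.16 and 8.59 to 16.8, 16.7 and 15.9 FPKM (0.91), and Dnajb4 from 6.26, 6.07 and 5.71 to 12.7, 11.2 and 12.4 FPKM (0.90). For Cryab, Dnajb2, Hspa2 and Dnajb4 the 144 h libraries were all above the 24 h libraries. Of the genes given in every comparison, Hspa8 changed by -0.82, Hsp90ab1 by -0.61, Cct2 by -0.88, Hspb1 by 1.22 and Hsf1 by -0.41, and all 5 were called.

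After 24 h of CT-179 no member was called. The limma fit on 12 cell libraries gave 0 of 37 at an adjusted p below 0.05, where 0.264% of all genes passed, and 0 of 37 at an unadjusted p below 0.05, where 5.12% of all genes did. The median log2 fold change of the members was 0.030, and 27 of 37 values lay above 0, against 44.9% of all genes, whose median was -0.013. Under TPM scaling 10 of 37 members lay above 0, with a median of -0.023 against -0.061 over all genes. The 4 smallest p-values belonged to Dnajb1, Stip1, Hsf2 and Chordc1. Dnajb1 had 24.3, 24.7 and 22.8 FPKM in vehicle and 26.1, 26.8 and 25.4 FPKM with CT-179 (0.12, SE 0.06, adjusted p = 1.0). Stip1 had the 205, 200.5 and 189 FPKM given above in vehicle and 215, 211 and 213 FPKM with CT-179 (0.11). In these 2 genes every CT-179 library was above every vehicle library. That held for 8 of 37 members and 1813 of 12510 genes, and the reverse for 1 member and 2859 genes. Hsf2 had 11.8, 12.4 and 13.5 and 11.8, 11.3 and 12 FPKM (-0.10), and Chordc1 11.6, 11.8 and 12.2 and 11.4, 10.4 and 11.6 FPKM (-0.087), and both overlapped between the groups. Hspa8 (-0.018), Hsp90ab1 (0.0097), Hspa1b (-0.033), Hspb1 (-0.0028) and Hsf1 (-0.0028) had no direction that held under every scaling or library left out. Hspa1a, below the filter, was at 0.275, 0.243 and 0.212 FPKM in vehicle and 0.31, 0.39 and 0.218 FPKM with CT-179.

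The 24 h count depended on the 144 h library that stood apart, because the 4 cell groups share 1 estimate of the spread. Without CT-179 replicate 2 at 144 h, 4 of 37 members rose at 24 h and 0 fell, where 8.08% of all genes rose and 14.1% fell. The 4 were Cct2 (0.10, SE 0.019, adjusted p = 0.0037), Cct7 (0.093, adjusted p = 0.016), Dnajb1 (0.12, adjusted p = 0.027) and Fkbp4 (0.11, adjusted p = 0.037). Cct2 had 231, 231 and 231 FPKM in vehicle and 249, 247 and 248 FPKM with CT-179 at 24 h, with no overlap between the groups. In the same fit 6 of 9 tested progenitor and SHH tumour genes fell at 24 h and 0 rose, and their part in the chaperone values was not tested. The fit without replicate 2 was not rerun with TPM scaling. With 12 libraries that scaling gave a members' median of -0.023 at 24 h.

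After 144 h of CT-179 again no member was called in the fit on 12 libraries, where 3.88% of all genes passed. At an unadjusted p below 0.05 there were 14 of 37, against 29.2% of all genes. The members' median was 0.11 and 28 of 37 were above 0, against 44.1% of all genes and a median over all genes of -0.047. Every CT-179 library lay above every vehicle library in 19 of 37 members (19.1% of all genes) and below in 3, Chordc1, Hsf2 and Hspa2 (27% of all genes). With each library rescaled to the same FPKM total (TPM scaling), the median over all genes was -0.20 and that of the members -0.075, with 17 of 37 above 0. The members' median changed sign and stayed above that of all genes.

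The 4 members with the smallest p at 144 h were Hspb1, Tcp1, Chordc1 and Cct2. Hspb1 had 0.718, 1.28 and 1.01 FPKM in vehicle and 1.33, 3.18 and 2.06 FPKM with CT-179 (0.64, SE 0.19, adjusted p = 0.09). Tcp1 had 80.2, 78.8 and 80.5 FPKM in vehicle and 89, 101 and 89.3 FPKM with CT-179 (0.22, adjusted p = 0.1). Chordc1 had 7.72, 8.2 and 8.44 FPKM and 6.9, 7.28 and 6.93 FPKM (-0.18, adjusted p = 0.12). The groups did not overlap in these 3 genes, with Chordc1 the lower under CT-179. Cct2 had 114, 114 and 113 FPKM and 126, 155 and 125 FPKM (0.24, adjusted p = 0.12), also without overlap. Hspa8 (0.0099) and Hspa1b (0.042) changed sign under TPM scaling. Hsp90ab1 was at 0.20 and Hsf1 at -0.085. Under TPM scaling Hsf1 was lower with CT-179 (-0.27, adjusted p = 0.036).

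Replicate 2 of the 144 h CT-179 group widened the spread of many members, and it did so in relation to their length. Hspe1, with 1474 exonic bases, was 2.43-fold the mean of replicates 1 and 3, and Cryab (1479 bases) and Hspb1 (1031 bases) were 1.89-fold and 1.88-fold. Hspa4l (11792 bases) was at 0.258 of that mean and Hsph1 (7266 bases) at 0.619. Several members did not follow that order, among them Cdc37 (8194 bases, 1.64-fold), Cct7 (6778 bases, 1.53-fold) and Stip1 (2108 bases, 1.02-fold). Across the 37 tested members Spearman's rho between length and the log2 ratio was -0.36, and across 11361 protein-coding genes it was -0.69. Genes are not independent replicates.

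**Figure D3:**
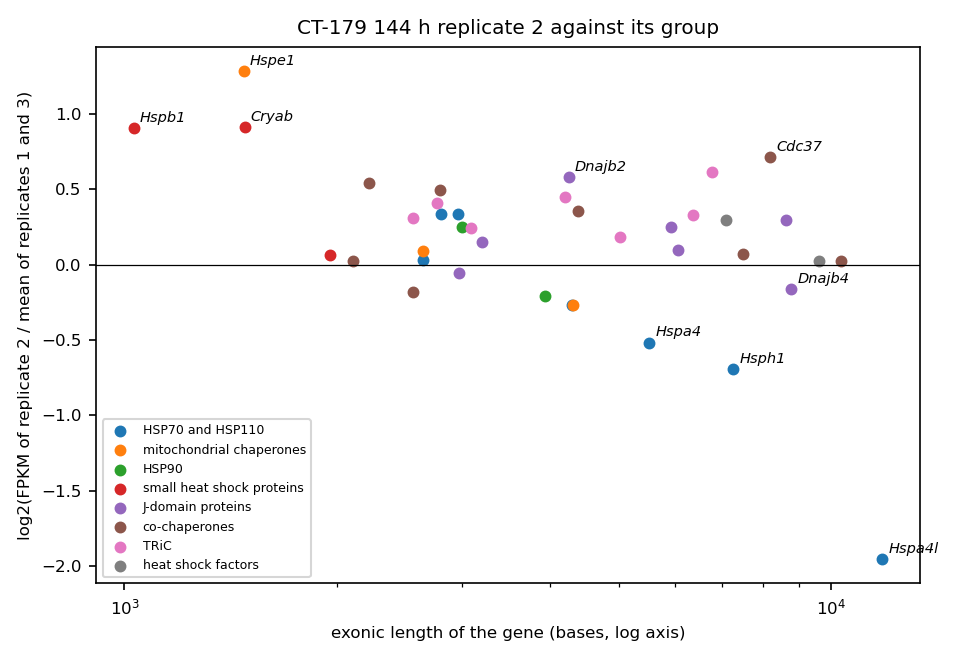
Log2 ratio of the FPKM of CT-179 replicate 2 at 144 h to the mean of replicates 1 and 3 (y axis) against the exonic length of each of the 39 members in bases (x axis, log scale), coloured by family. Hspe1, Cryab and Hspb1, at 1031 to 1479 bases, lie highest and Hspa4l, at 11792 bases, lowest.

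Without that library, 11 of 37 members rose at 144 h and 2 fell, where 11.8% of all genes rose and 16.9% fell. The 11 included 6 of the 7 TRiC subunits, namely Cct2 (0.14, SE 0.021, adjusted p = 0.00092), Cct3 (0.13), Cct4 (0.10), Cct5 (0.16), Cct7 (0.14) and Tcp1 (0.16). The others were the HSP90 co-chaperones Fkbp4 (0.18) and Cdc37 (0.14), Hspa8 (0.10), the J-domain gene Dnaja1 (0.11) and Hspb1 (0.43, adjusted p = 0.042). Hsf1 (-0.18, adjusted p = 0.0075) and Chordc1 (-0.20, adjusted p = 0.0095) fell. Cct2, Cct7 and Fkbp4 were called higher at both times, which is 3 of the 4 called at 24 h and 3 of the 11 called at 144 h. The same overlap over all genes was not counted. With its 2 remaining libraries the CT-179 group at 144 h had the spread estimated for all groups. All the changes but that of Hspb1 were of at most 0.20 on the log2 scale. Among the marker lists in the same fit at 144 h, 3 of 4 tested neuron genes fell and 0 rose, 3 of 6 astrocyte genes fell and 1 rose, 4 of 9 progenitor and SHH tumour genes fell and 2 rose, and 2 of 5 oligodendrocyte precursor genes fell and 1 rose. Their part in the chaperone values was not tested. The fit without replicate 2 was not rerun with TPM scaling, which gave a members' median of -0.075 at 144 h with 12 libraries.

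Whether the CT-179 effect differed between the times was tested directly. In limma 0 of 37 members were called on 12 libraries, where 0% of all genes passed, and 1, Hspb1 (0.65, adjusted p = 0.69), had an unadjusted p below 0.05 (4.59% of all genes). Without CT-179 replicate 2 at 144 h, 0 were called again, where 2.66% of all genes were, and 6 had an unadjusted p below 0.05 (16.4% of all genes). Hsf1 had the smallest p among the members (-0.17, adjusted p = 0.12). The effects at 24 h and 144 h are thus not shown to differ for any member.

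**Figure D4:**
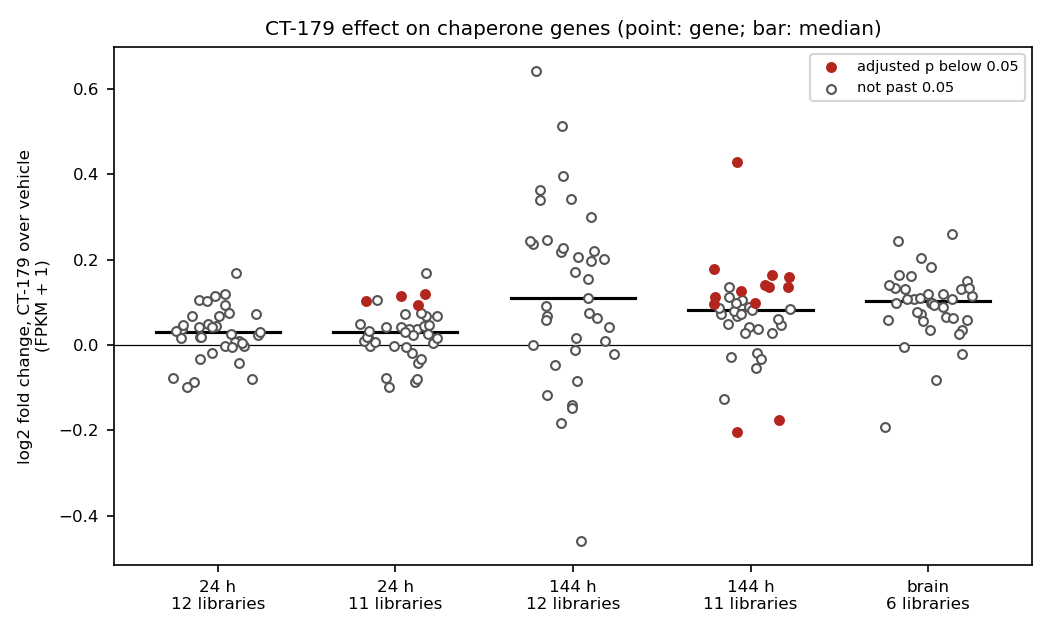
Log2 fold change of FPKM + 1, CT-179 over vehicle (y axis), for each tested member in 5 columns (x axis): 24 h with 12 cell libraries, 24 h with 11 (without CT-179 replicate 2 at 144 h), 144 h with 12, 144 h with 11, and brain. Bars are medians and red points passed an adjusted p of 0.05: 0, 4, 0, 13 and 0 from left to right.

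In whole brain the order of the members differed from that in cells. Counted from the most abundant member, in vehicle cells at 24 h and then in vehicle brain, Hspd1 ranked 3 and 13, Hspe1 6 and 14, Ahsa1 17 and 6, and Cryab 36 and 8. The cell and brain tables were normalized separately, so their levels are set side by side without a test. Hsp90ab1 (685 ± 29.6 FPKM in vehicle) and Hspa8 (545 ± 43.3 FPKM) were again first and second, and Hsp90aa1 followed at 199 ± 11.7 FPKM. The ratio of Hsp90ab1 to Hsp90aa1 was 3.45 ± 0.25 (SD, n = 3), below every cell library. Cryab reached 105 ± 3.97 FPKM, Hspb8 14.4 ± 1.01 FPKM and Hspb1 13.6 ± 2.49 FPKM, all above their highest cell values of 26.5, 0.817 and 3.18 FPKM. Dnajb2 was at 35.2 ± 3.14 FPKM and Dnajb5 at 20.6 ± 1.37 FPKM. The TRiC genes summed to 601 ± 30.3 FPKM and the mitochondrial chaperones to 262 ± 17.3 FPKM, with a ratio of Hspd1 to Hspe1 of 1.01 ± 0.021. The 39 members held 0.855% ± 0.061 of the summed FPKM. Hspa1a and Hspa1b were low, at 0.512 ± 0.179 and 0.922 ± 0.104 FPKM.

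Brains were grouped by the treatment label. The word vehicle also stands in the titles of the CT-179 brains, although these end in CT179, and the library descriptions carry the letter C for the brains labelled vehicle and V for those labelled CT-179, against the initials of the treatments. Each direction in brain therefore rests on the treatment label. If the labels were exchanged, every brain value below would turn its sign, with a members' median of -0.10 and 4 of 38 positive. In limma 0 of 38 members were called in brain, where 0% of all genes passed, and 3 had an unadjusted p below 0.05 (3.65% of all genes). The 39 members in the authors' deposited table, which compares brains of these 2 groups with edgeR, had a lowest false discovery rate of 1 and a lowest p-value of 0.057 (Hspa2). Their log2 fold change is signed the other way. Across genes it matched vehicle replicates 1 and 3 over the 3 CT-179 brains (Pearson's r 0.99997 over 13114 genes), and matched less when vehicle replicate 2 was included (r 0.682). In limma 34 of 38 members had a positive log2 fold change, against 56% of all genes, with a median of 0.10 against 0.016. Under TPM scaling 24 of 38 were positive, with a median of 0.011 against -0.063 over all genes. Without vehicle replicate 2, the brain of lowest depth, 33 of 38 were positive and the median was 0.052 against 0.0084. In the authors' deposited table the CT-179 side was higher in 33 of 39, with a median of -0.044 in that table's own sign. Its values matched the same brains without vehicle replicate 2, so this count is not separate from the one before it. The share over all genes of that table was not counted.

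Every CT-179 brain lay above every vehicle brain in 10 of 38 members (5.71% of all genes, 766 of 13422) and below in 0 members (617 genes). Both counts were made on FPKM as deposited, without TPM scaling. The 4 smallest p-values were among the 10 members above. Hspa2 had 10.1, 11 and 10.5 FPKM in vehicle and 12.9, 14 and 11.3 FPKM with CT-179 (0.24, SE 0.09, adjusted p = 0.97). Dnajb2 had 36.8, 31.6 and 37.3 FPKM in vehicle and 41.8, 40 and 40 FPKM with CT-179 (0.20, SE 0.083). Cryab had 107, 101 and 108 FPKM in vehicle and 148, 113 and 121 FPKM with CT-179 (0.26, SE 0.11). Bag3 had 8.36, 9.65 and 9.23 FPKM in vehicle and 10.9, 9.78 and 10.1 FPKM with CT-179 (0.16, SE 0.081). Without vehicle replicate 2 the value of Dnajb2 was 0.13, and those of Hspa2 (0.27), Cryab (0.23) and Bag3 (0.20) moved less. In each of these 4 genes the highest vehicle brain stayed below the lowest CT-179 brain, and none passed the adjusted threshold. The other 6 were Hsp90ab1, Hspa4, Hspa9, Hspd1, Cct2 and Cct4. Beside these values, the 8 neuron genes summed to 1719 to 1958 FPKM in vehicle and 1944 to 2118 FPKM with CT-179. The 6 oligodendrocyte genes summed to 4825 to 5240.5 FPKM in vehicle and 5169 to 6593 FPKM with CT-179. The 6 genes of oligodendrocyte precursors summed to 273 to 275 FPKM in vehicle and 302 to 320.3 FPKM with CT-179, without overlap, and 0 of the 6 were called. Other lists differed. Of 12 progenitor and SHH tumour genes 3 were above 0 (median -0.080), and of 4 tested red cell genes 4 were (median 0.51). Medians were 0.028 for astrocyte, 0.0036 for microglia, -0.0091 for endothelium and 0.020 for fibroblast genes, against 0.016 over all genes. No marker gene was called. The part of these marker genes in the chaperone values was not tested.

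None of the remaining genes given in every comparison was called in brain. Hspa8 had 548, 501 and 587 and 601, 543 and 575 FPKM (0.073), a direction that turned under TPM scaling. Hspb1 had 13, 11.5 and 16.3 and 18.1, 13.8 and 14.6 FPKM (0.18), and Hspa1b 1.03, 0.817 and 0.924 and 1.21, 1.16 and 0.953 FPKM (0.13). These 3 genes overlapped between the groups. Without vehicle replicate 2 the values of Hspa8 and Hspb1 were 0.013 and 0.077. Hsp90ab1 had 667, 668 and 719 and 758, 761 and 780.4 FPKM (0.16) and Cct2 80.3, 75.2 and 76.6 and 83.8, 85.4 and 83.2 FPKM (0.12), without overlap. Hsf1 had 9.89, 9.3 and 10.5 and 9.16, 9.45 and 9.23 FPKM (-0.082). Among the tested members Hspa4l had the largest SE in brain on the log2 scale (0.24). It had 4.74, 4.29 and 3.15 and 1.95, 4.28 and 4.42 FPKM, its lowest value being in CT-179 replicate 1.

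The rest of the chaperone network, a list of 45 further genes with prefoldin, the chaperones of the endoplasmic reticulum and other co-chaperones, was read beside the members. Of the 43 tested in cells, 24 fell and 7 rose over time in vehicle, with a median of -0.39, and 22 fell and 10 rose under CT-179, with a median of -0.30. The 3 smallest p-values in vehicle were those of Hspa12b (-1.43), an atypical HSP70, Trap1 (-0.70), the mitochondrial HSP90, and the J-domain gene Dnaja4 (0.93). CT-179 gave 0 called genes of 43 at 24 h and at 144 h in the fit on 12 libraries. Without CT-179 replicate 2 at 144 h, 8 rose and 0 fell at 24 h, and 13 rose and 1 fell at 144 h. The prefoldin genes Pfdn1 (0.20 at 24 h and 0.25 at 144 h) and Pfdn5 (0.19 and 0.24) had the smallest p at both times. Prefoldin hands unfolded actin and tubulin to TRiC. Of the 45 tested in brain 0 were called. Immediate early genes, which like the heat shock genes respond to handling, were tested for 10 of 16 in cells. Over time in vehicle 5 rose and 2 fell, and under CT-179 at 144 h 1 (Junb, 0.72) was called higher in the fit on 12 libraries. In brain 11 were tested and 0 called. There 4 of the 11 lay above 0, with a median of -0.055 against 0.016 over all genes.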

How the data were processed

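RNA was measured in 12 libraries of PTCP53 304 cells and 6 of whole brain, as paired reads of 100 bases per the labels' protocols. The submitters' processing notes name the mm10 build, STAR 2.6.0c after Trim Galore 0.5.0, HTSeq 0.6.1p2, and edgeR 3.28.1 under R 3.6. For their settings, annotation and strand the entry is: not given in the sources used here. Per the file headers, the authors' tables hold FPKM of each gene in each library, and the brain table adds the authors' log2 fold change, p-value and false discovery rate.

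The members and gene lists were chosen with earlier results of these data known. Tests used limma 3.58.1 in R 4.3.3 on log2(FPKM + 1), two-sided, with moderated variance and a mean trend, for genes reaching 1 FPKM in 3 or more libraries, with Benjamini-Hochberg adjustment and a threshold of 0.05. The 12 cell libraries shared 1 fit (12510 genes) and the 6 brain libraries another (13422 genes). The fit was tested on simulated data with 50 changed genes of each size. A log2 change of 0.25 was recovered in 12% at 24 h, 10% at 144 h and 2% in brain. A change of 1.0 was recovered in 82%, 80% and 88%. Without CT-179 replicate 2 at 144 h, recovery of 0.25 at 24 h was 88%, with 20 unchanged genes called. Small CT-179 changes can thus go uncalled in the full fits. For each comparison, called members were named. Up to 8 with the smallest p, or the 4 with the smallest p where none was called, have values per library. Hspa8, Hsp90ab1, Hspa1a, Hspa1b, Hspb1, Hsf1 and Cct2 were given throughout.

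Exonic lengths came from GENCODE M21, which gave 35 members the same coordinates. Low values (20 reads or fewer) were whole multiples of 1 read, with a tolerance of 0.1, in 89.3% to 91.2% of cases in the cell libraries and 93.1% to 97.7% in the brain libraries. These implied reads describe depth only, and no count model was run. The replicate numbers were checked for pairing by the correlation of deviations from the group means. Over time under CT-179 it was 0.11, 0.24 and 0.14 for numbers 1, 2 and 3. Unlike numbers reached 0.15 (replicate 3 at 24 h with 1 at 144 h) and 0.098 (1 with 3). Pairs of replicate 2 with an unlike number were negative (-0.24 to -0.11). The check therefore cannot tell whether the numbers pair the samples of that comparison. The values printed for it come from the fit without a replicate block, and with the block St13 lost its call. No 2 libraries shared more than 0.152% of tested values exactly.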

Additional observations from a re-analysis of the deposited data

Results flagged for a closer look

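Hspa2, the HSP70 gene that rose with culture time, went opposite ways under CT-179 in cells and in brain. At 144 h its log2 fold change was -0.12 (adjusted p = 0.20 in limma), with all 3 CT-179 libraries below all 3 vehicle libraries. In brain it was 0.24 (adjusted p = 0.97), with all 3 CT-179 libraries above all 3 vehicle libraries. The opposite directions rest on the treatment labels of the brains, and the letters in their library descriptions run against the treatment initials. With the brain labels exchanged the value would be -0.24, the same direction as in cells. The difference between the 2 settings was not tested, and neither value passed the threshold.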

How the results depend on the processing

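Over time, the count of called members stayed within 1.5 times of 32 in vehicle (29 to 36) and of 30 under CT-179 (27 to 36) in all alternatives run. For CT-179 at 24 h the count of 0 became 9 with array weights (26.5% of all genes called), 2 of 36 in a separate fit of the 6 libraries of that time (17.4%), and 0 to 4 with 1 library left out. At 144 h the count of 0 became 1 with no filter on low values (Hspb8; 2.35% of all genes), 1 with TPM scaling (Hsf1; 4.02%), 25 with array weights (47.9%), and 0 to 13 with 1 library left out. Only CT-179 replicate 2 at 144 h gave 4 and 13, and CT-179 replicate 1 at 144 h gave 2 at 144 h (9.15%). Without replicate 2, median-of-ratios scaling gave 13 at 24 h (29.7% of all genes) and 22 at 144 h (33.6%). With that scaling 21.1% of all genes were higher and 8.57% lower at 24 h, and 22.3% and 11.3% at 144 h, where without it more genes were lower than higher. A correction for gene length gave 6 (15.3%) and 14 (23%). These settings were added after seeing the data. TPM scaling was not run without replicate 2. The difference of the CT-179 effect between times had 0 called members except with array weights (3, where 9.84% of all genes were called). The cause of these shifts was not tested. In brain the count was 0 in all alternatives run. The replicate block gave 29 called members over time under CT-179 and 31 in vehicle, where Dnajb6 (adjusted p = 0.066) lost its call, and changed no other call. In the contrasts other than time under CT-179, same-number correlations ran from -0.39 to 0.11 and showed no pairing. For time under CT-179 the check could not decide.

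Signs of small differences turned. At 24 h Hspa8 was 0.035 and Hsf1 0.048 with median-of-ratios scaling, Hsp90ab1 -0.050 with TPM scaling, and Hspb1 0.0099 with a pseudocount of 0.1 FPKM and 0.011 with median-of-ratios scaling. TPM scaling gave -0.18 for Hspa8 and -0.075 for Hspa1b at 144 h, -0.020 for Hspa8 in brain, and -0.10 for Hspa8 and -0.012 for Hspa1b in the difference between times. With 1 library left out, the 24 h values ran from -0.031 to 0.0023 for Hspa8, -0.019 to 0.063 for Hsp90ab1, -0.085 to 0.020 for Hspa1b, -0.071 to 0.080 for Hspb1 and -0.038 to 0.022 for Hsf1. The 144 h values ran from -0.045 to 0.099 for Hspa8 and -0.027 to 0.090 for Hspa1b, and the difference for Hspa8 from -0.027 to 0.12. Depth limits Hspa1a, Hspb1 and Hspb8 in cells at 24 h, at 2 to 49 implied reads per library.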
